A study of Mus musculus with 4 samples.

Results

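The cells described are lung alveolar macrophages of MMTV-HER2 mice, compared between 32 weeks (late) and 16 weeks (early) of age. They were barcodes with 1000 UMIs or more (unique molecular identifiers, 1 per captured transcript), 500 genes or more and no more than 10% of UMIs from mitochondrial genes. In each of them the alveolar macrophage genes Chil3, Ear1, Ear2, Fabp1, Lpl and Plet1 together made at least 0.4% of UMIs and exceeded C1qa, C1qb and C1qc together. The rule gave 4413 cells at 16 weeks and 5702 at 32 weeks, in all 10115 of the 11680 cells of the HER2 libraries and of the 22258 cells of the series. These were 86.1% of the early cells (exact Clopper-Pearson 95% interval 85.1 to 87.0) and 87.0% of the late cells (86.2 to 87.8).

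The series profiled sorted lung macrophages by droplet single-cell RNA sequencing of 3′ ends, in 4 libraries from female mice. The MMTV-HER2 strain carries the HER2 oncogene under the mouse mammary tumour virus promoter, which acts mainly in mammary epithelium. HER2 mice of 32 weeks had palpable tumours, while those of 16 weeks were taken at the early lesion stage. The other libraries came from wildtype FVB mice of the same ages and serve here as a reference. Each wildtype age is also 1 library, so age and library cannot be told apart there. Each group is 1 library, and the number of mice behind it and the sort gate were not stated in the labels. Genotypes rest on the sample titles, because the strain entry in the labels is the same for every sample. With 1 library per group there is no replicate check, no test was possible, and the intervals below cover counting error only. Age, tumour stage and library cannot be told apart.

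Alveolar macrophages are the resident macrophages of the airspace. They depend on GM-CSF signalling and the transcription factor PPARγ, take up and degrade surfactant lipid, and clear inhaled particles through scavenger receptors such as MARCO. Most of them hold little MHC class II (the proteins that present peptides to CD4 T cells). Interstitial macrophages of the lung tissue hold more and make the complement component C1q. Heat shock chaperones and immediate early genes are induced quickly by stress. The lungs of all groups were digested with collagenase at body temperature before the sort.

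The early alveolar macrophages held 18226829 UMIs in sum, with a median of 3728 UMIs and 1407 genes per cell, and the late ones 27573921, with medians of 4369.5 and 1547. The median mitochondrial share was 5.17 and 4.71%, and the median share of Gm42418, a transcript that overlaps ribosomal RNA, 17.7 and 19.9%. The 2 HER2 sets shared 7 barcodes, where 3.70 would be shared if barcodes were drawn independently. Cells just outside the rule, with these genes between 0.3 and 0.4% of UMIs, numbered 11 early and 17 late. All 13 alveolar macrophage markers (Siglecf, Car4, Pparg and Itgax among them) were measured in both libraries, with a summed level of 18975 CPM early and 19932 CPM late. The 6 genes of the rule made 17558 and 18427 CPM of it, so the sum is set largely by the rule. CPM is the count of a gene per 1000000 UMIs of these cells. Erbb2, the mouse gene of the HER2 receptor, was at 11.3 and 8.60 CPM, against 6.78 and 10.2 CPM in the wildtype libraries. Its level did not separate the genotypes in these cells. Whether reads of the transgene are counted under this gene was not tested, so these levels are no check of the genotypes.

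Most genes had nearly the same level at both ages. Of 7039 genes with a mean of at least 10 CPM, 149 (2.12%) were at least 25% higher late and 116 (1.65%) at least 20% lower, which is the same ratio inverted. Below, "higher" and "lower" in counts mean past this limit. At 1.5-fold the counts were 28 (0.398%) and 25 (0.355%). The share of higher genes among those past the limit was 56.2%. It was 66.7% with CPM taken without Gm42418, mitochondrial and ribosomal protein genes, 45.2% in the authors' averages and 41.1% with every cell thinned to 2000 UMIs. The log2 ratios of all 7039 genes had a standard deviation of 0.18 and a median of −0.01. In wildtype alveolar macrophages chosen by the same rule, the standard deviation was 0.34, and 1808 (25.7%) of the same genes were higher and 570 (8.1%) lower. At 1.5-fold these were 357 (5.07%) and 157 (2.23%). Of the genes past the limit in HER2, 108 of the 149 higher ones were also higher in wildtype, and 50 of the 116 lower ones were also lower there.

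Genes were ranked in each direction by the interval bound nearest to 0, and the leading 15 of each were taken. The higher ones described here were Wfdc10, Ftl1-ps1, Cd74, H2-Ab1, Ear10, Mmp12, H2-Aa, Egr1, Fabp4, Cd63, Marco, Tuba1c, Ear1 and Chil3. The lower ones were Hspa1b, Ubb, Bcl2a1a, Ear2, Hspa1a, Hmgn2, Malat1, Rsrp1, Tmsb10, Stmn1, Mycbp2, Dnaja1, S100a6, Tsc22d3 and Ash1l, of which Tsc22d3 was just short of the limit. In the averages that the authors made from their own choice of alveolar macrophages, all 30 ranked genes had the same direction. The 2 tables behind those averages were scaled separately.

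**Figure D1:**
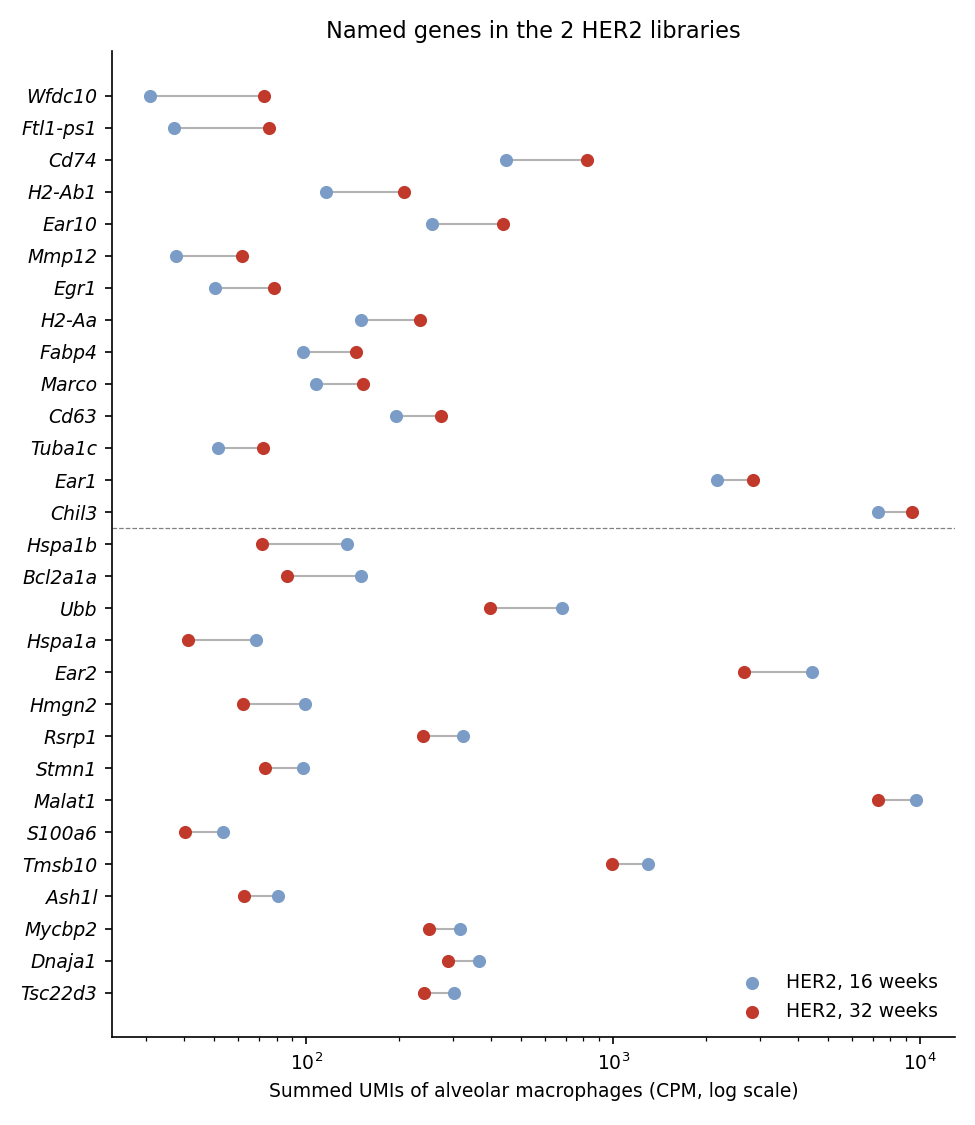
Level of 29 named genes in HER2 alveolar macrophages, as CPM of summed UMIs on a log axis, with 1 point per library (blue 16 weeks, red 32 weeks). The 14 genes above the dashed line were higher late, by log2 0.37 for Chil3 to 1.23 for Wfdc10, and the 15 below it lower, by log2 −0.32 for Tsc22d3 to −0.92 for Hspa1b.

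Several of these genes lie in pairs or clusters of similar sequence, and their upstream regions are shown because the members differed between the ages either the same way (Hspa1a and Hspa1b) or opposite ways (Ear1 and Ear10 against Ear2). H2-Aa is added as an MHC class II gene past the limit in HER2. The sequences are the 250 bases before the start that RefSeq gives each gene (build GRCm38.p6), written 5′ to 3′ on the gene's strand. Capitals mark GAANNTTC (the core of a heat shock element) and CCAAT in the Hspa1 genes, TGACGTCA (a cyclic AMP response element) and CCAAT in H2-Aa, and CCAAT alone in the Ear genes. Both strands were searched, so ATTGG is CCAAT on the other strand. The marked motifs do not overlap. The H2-Aa window also holds a GAANNTTC match, left in lower case.

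Hspa1a lies at chr17:34972157-34972406 and Hspa1b at chr17:34959239-34959488, both on the minus strand.
Hspa1a: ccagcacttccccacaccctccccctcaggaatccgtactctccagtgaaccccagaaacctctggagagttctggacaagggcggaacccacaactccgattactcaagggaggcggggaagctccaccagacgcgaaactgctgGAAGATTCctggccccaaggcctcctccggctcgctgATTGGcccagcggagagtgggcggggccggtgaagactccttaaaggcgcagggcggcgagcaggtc
Hspa1b: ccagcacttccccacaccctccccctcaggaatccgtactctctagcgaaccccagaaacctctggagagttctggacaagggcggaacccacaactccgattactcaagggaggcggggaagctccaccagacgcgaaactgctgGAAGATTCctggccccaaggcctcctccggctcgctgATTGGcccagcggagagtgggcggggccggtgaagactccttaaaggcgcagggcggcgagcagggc

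H2-Aa lies at chr17:34287824-34288073, on the minus strand.
H2-Aa: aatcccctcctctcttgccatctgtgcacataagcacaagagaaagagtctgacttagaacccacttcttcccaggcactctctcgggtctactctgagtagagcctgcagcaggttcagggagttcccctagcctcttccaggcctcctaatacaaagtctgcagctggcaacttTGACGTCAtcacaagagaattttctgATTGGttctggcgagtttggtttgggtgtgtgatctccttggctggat

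Ear1 lies at chr14:43819640-43819889 and Ear10 at chr14:43923597-43923846, both on the minus strand, and Ear2 at chr14:44102404-44102653 on the plus strand. In GENCODE a longer Ear1 transcript starts farther upstream, so the Ear1 window lies within it, and Ear10 starts slightly downstream of the RefSeq start.
Ear1: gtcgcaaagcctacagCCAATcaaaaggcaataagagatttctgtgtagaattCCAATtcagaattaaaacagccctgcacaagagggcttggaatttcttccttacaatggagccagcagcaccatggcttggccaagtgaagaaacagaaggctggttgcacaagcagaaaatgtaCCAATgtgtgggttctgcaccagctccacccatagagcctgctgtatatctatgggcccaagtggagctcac
Ear2: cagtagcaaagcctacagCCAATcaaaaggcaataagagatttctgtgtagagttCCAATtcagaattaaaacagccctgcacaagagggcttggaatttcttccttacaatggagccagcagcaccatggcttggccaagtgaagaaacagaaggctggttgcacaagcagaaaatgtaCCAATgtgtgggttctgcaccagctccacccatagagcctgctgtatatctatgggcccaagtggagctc
Ear10: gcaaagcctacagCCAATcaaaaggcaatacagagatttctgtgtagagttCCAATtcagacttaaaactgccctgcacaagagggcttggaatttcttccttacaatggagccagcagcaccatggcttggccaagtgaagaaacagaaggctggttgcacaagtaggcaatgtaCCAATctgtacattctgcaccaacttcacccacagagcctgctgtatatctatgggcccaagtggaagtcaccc

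The Hspa1a and Hspa1b windows were identical at 247 of 250 aligned positions, with the GAANNTTC match beginning 104 bases before the start in both. Ear1 and Ear2 were identical at 246 of 252 aligned positions (97.6%), and Ear10 at 91.7% to Ear1 and 90.6% to Ear2. Each Ear window held 3 CCAAT matches at nearly the same places, beginning 234, 197 and 72 bases before the start in Ear1. In the same windows of 32817 RefSeq promoters, GAANNTTC was found in 6.69%, CCAAT in 33.8% and TGACGTCA in 1.55%. Matches to these letters are descriptions of the sequence.

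Of the ranked higher genes, 3 belong to MHC class II. Cd74, the invariant chain that guides MHC class II to the endosome, was at 446 CPM early and 819 CPM late, a 1.84-fold difference (log2 0.88, interval 0.84 to 0.91). H2-Ab1, the beta chain of the I-A molecule, was at 116 and 207 CPM (log2 0.84, 0.76 to 0.91). H2-Aa, its alpha chain, was at 151 and 235 CPM (log2 0.64, 0.57 to 0.70). These 3 were the only members of the MHC class II list past the limit, of 7 measured among 13. Over all genes, 2.12% were higher. The list median was log2 0.19 against −0.01 over all genes. The genes of peptide loading were within the limit. H2-DMa was at 192 and 168 CPM, H2-DMb1 at 90.4 and 103 CPM, Ifi30 (a thiol reductase of the endosome) at 229 and 227 CPM, and Ctss (cathepsin S, which trims the invariant chain) at 2447 and 2097 CPM. In wildtype, Cd74 and H2-Ab1 differed by similar amounts (log2 0.81 and 0.77), while H2-Aa was at 162 CPM early and 174 CPM late (log2 0.11). The wildtype list had 3 members higher and 1 lower, against 25.7 and 8.1% of all genes. H2-DMb1 was at 97.8 and 154 CPM there (log2 0.66) and H2-DMa at 188 and 146 CPM (−0.36).

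Without thinning, Cd74 was found in 34.5% of early and 47.5% of late cells. With every cell thinned to 2000 UMIs the shares were 25.95 and 34.7%. Its UMIs were spread unevenly among the cells. The richest 1% of the early cells, 44 cells, held 34.5% of all Cd74 UMIs, and the richest 1% of the late cells, 57 cells, held 38.7%. With every cell thinned to 2000 UMIs, cells with at least 3 UMIs of Cd74, H2-Aa, H2-Ab1 and H2-Eb1 together made 12.5% of early cells (11.4 to 13.5) and 18.4% of late cells (17.4 to 19.5). Without thinning the shares were 18.0 and 27.6%. T cells of the same libraries, which should lack these genes, had such counts in 11 of 68 early cells (16.2%, median 3200 UMIs) and 12 of 38 late cells (31.6%, median 4142.5 UMIs), unthinned. The T cell intervals were wide, 8.36 to 27.1% early and 17.5 to 48.7% late. So few T cells cannot place the shares of alveolar macrophages above or below that background. The shares are therefore not read as a state of these cells. Free RNA (barcodes of 10 to 100 UMIs) held Cd74 at 2212 CPM early and 2432 CPM late. With free RNA subtracted, the log2 ratio of Cd74 was 1.00.

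A set of these cells also held C1q, the marker of interstitial macrophages, although their alveolar genes exceeded it by the rule. Alveolar macrophages with at least 1 C1q UMI numbered 347 early (7.86%) and 734 late (12.9%). After thinning to 2000 UMIs they were 4.28% (3.67 to 4.96) and 6.84% (6.18 to 7.55). In wildtype the thinned shares were 3.46 and 4.10%. The cells with C1q had medians of 4420 and 5344 UMIs, against 3676.5 and 4247.5 in the cells without. They held 30.6% of the early and 49.4% of the late UMIs of Cd74, H2-Aa, H2-Ab1 and H2-Eb1.

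Cd74 and H2-Ab1 were higher in both kinds of cell. Among cells with a C1q UMI, Cd74 was at 1356 CPM early and 2468 CPM late (log2 0.86). Among cells without one, it was at 352 and 505 CPM (log2 0.52, 0.48 to 0.57). H2-Ab1 without C1q was at 80.9 and 113 CPM (log2 0.48), and H2-Aa at 114 and 142 CPM (log2 0.32), just short of the limit. Removing the cells with C1q left Cd74 and H2-Ab1 past it, 2 of the 7 measured members.

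**Figure D2:**
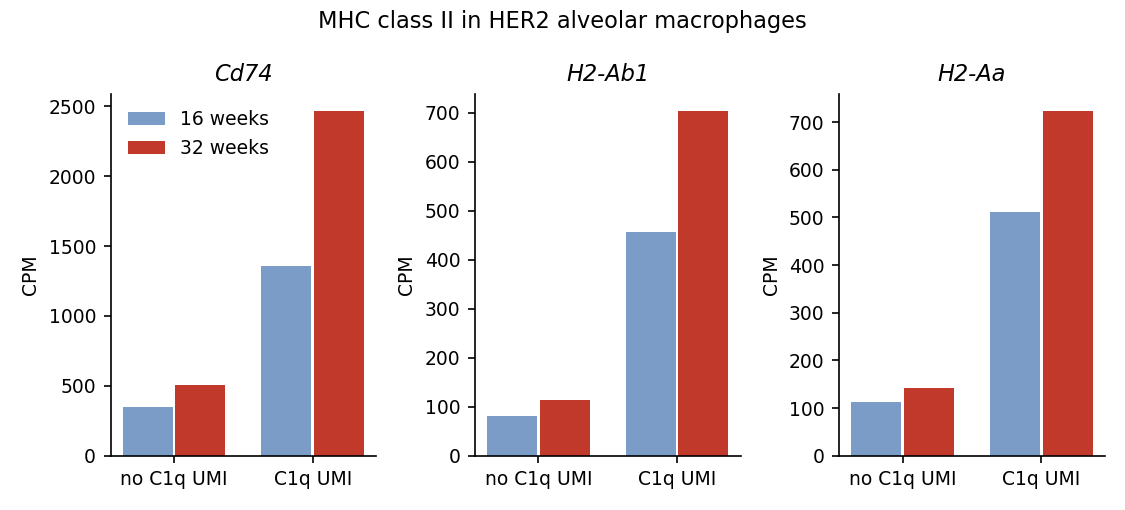
Cd74, H2-Ab1 and H2-Aa in HER2 alveolar macrophages without and with a C1q UMI, as CPM of summed UMIs from 1 library per bar. Cd74 was at 352 and 505 CPM in cells without C1q and at 1356 and 2468 CPM in cells with it.

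Across the 13 interstitial macrophage markers, the summed level in alveolar macrophages was 479 CPM early and 648 CPM late. Higher ones were 5 of the 7 measured, against 2.12% of all genes. C1qa, C1qb and C1qc were used to choose the cells, as an upper limit. C1qa was at 32.4 and 85.6 CPM. In free RNA the same 13 markers summed to 6135 CPM early and 3576 CPM late, so free RNA held less of them late. Csf1r was at 73.9 and 75.3 CPM. Lyve1 and Folr2, markers of perivascular macrophages, stayed under 3 CPM in both. The part of these markers in the class II difference was not tested beyond the values without cells holding C1q.

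The ribonuclease genes of the Ear family differed in opposite directions. Ear2 was at 4444 CPM early and 2664 CPM late, 1.67-fold lower (log2 −0.74, −0.75 to −0.72). Ear1 was at 2175 and 2845 CPM (log2 0.39, 0.37 to 0.40), and Ear10 at 256 and 438 CPM (log2 0.77, 0.73 to 0.82). Ear2 made 64.6% of the sum of the 3 genes early and 44.8% late, while Ear1 went from 31.6 to 47.8% and Ear10 from 3.72 to 7.36%. Their sum was 6875 and 5947 CPM. Ear1 and Ear2 were among the genes that chose the cells, and the 3 genes share stretches of at least 95% identity in their last 300 bases, where 3′ reads fall, so counts may be split between them. Among the 10 measured members of the Ear and angiogenin list, 3 were higher (Ear1, Ear10 and Ang6, at 7.63 and 14.6 CPM) and 1 lower. Over all genes, 2.12% were higher and 1.65% lower. In wildtype, Ear2 (log2 −0.68) and Ear10 (0.87) had the same direction, but Ear1 was at 2249 CPM early and 1554 CPM late (log2 −0.53). Ear10 was found in 40.0% of thinned early cells and 57.4% of late ones, and in 2.66 and 4.96% of C1q-rich interstitial-type cells thinned alike.

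Genes of alveolar identity were otherwise near even. Of 27 such genes outside the rule, Marco and Fabp4 were past the limit, none was lower, and the median was log2 −0.03. Over all genes, 2.12% were higher and 1.65% lower, with a median of log2 −0.01. In wildtype 10 of the 27 were higher and 1 lower, against 25.7 and 8.1% of all genes. Marco, a scavenger receptor for particles and bacteria, was at 108 CPM early and 153 CPM late (log2 0.51, 0.43 to 0.59), against 55.0 and 180 CPM in wildtype (log2 1.71). Fabp4, a fatty acid carrier, was at 97.9 and 145 CPM (log2 0.57, 0.49 to 0.65). Chil3, a chitinase-like protein used in the rule, was at 7280 and 9425.5 CPM (log2 0.37). Pparg was at 115 and 97.5 CPM, Siglecf at 114 and 104 CPM, Car4 at 147 and 129 CPM, and the GM-CSF receptor chain Csf2ra at 143 and 126 CPM. Wfdc10, which encodes a small secreted protein of the WAP family, was the highest-ranked gene, at 31.0 CPM early and 72.6 CPM late (2.34-fold, log2 1.23, 1.09 to 1.36). It was seen in 4.77% of thinned early cells and 10.5% of late ones, against 0 and 0.496% of the C1q-rich cells. The 0 was out of 413 cells, which allows a share of cells with a UMI of up to 0.726% at this depth and says nothing of lower expression. The other 3 measured WAP genes were within the limit.

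**Figure D3:**
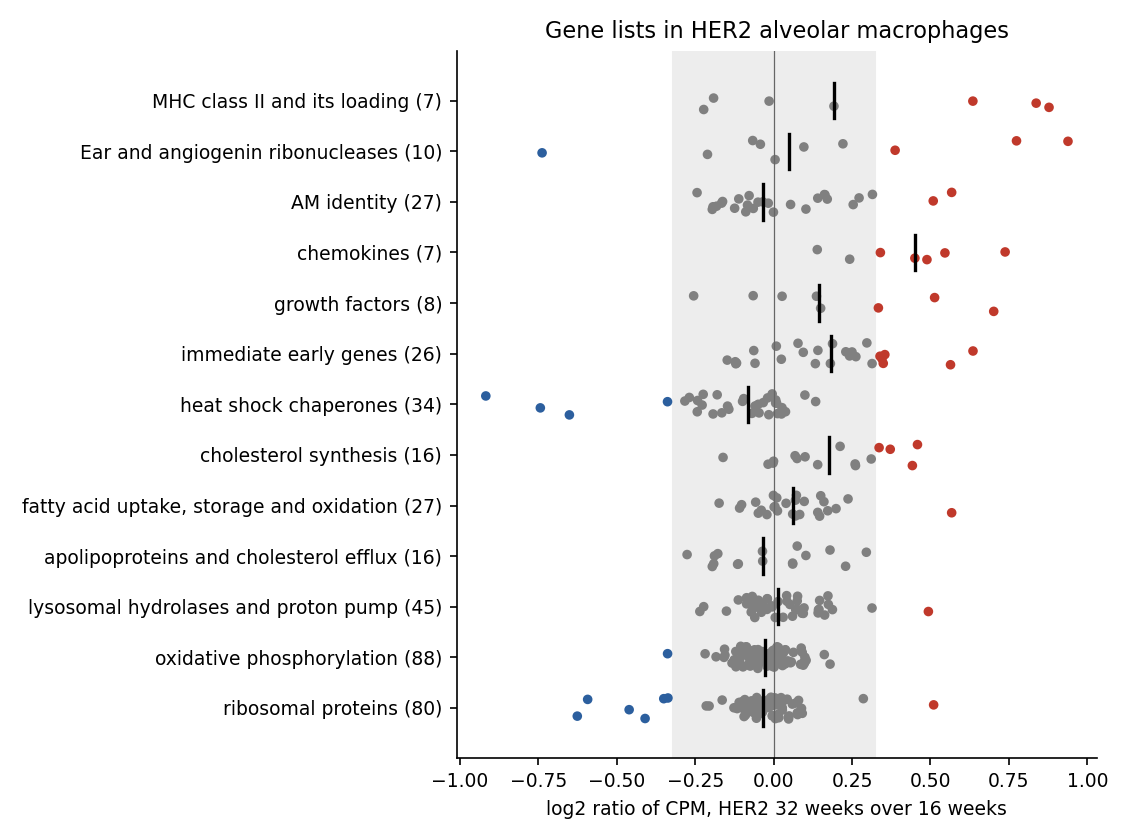
Log2 ratio of CPM, 32 over 16 weeks, for every measured member of 13 gene lists in HER2 alveolar macrophages, with the number measured in brackets, 1 point per gene and a black line at the median. The grey band is within the limit for calling a gene higher or lower. Chemokine members lie mostly to the right of the band, and 4 heat shock members to its left.

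Of 7 measured chemokines 5 were higher and none lower, with a median of log2 0.44. Over all genes, 2.12% were higher and 1.65% lower. Cxcl16, a membrane-bound ligand of CXCR6, was at 14.2 CPM early and 23.6 CPM late (log2 0.74, 0.53 to 0.95), but without cells holding a C1q UMI its log2 ratio was 0.18, within the limit. Ccl3, a ligand of CCR1, was at 17.0 and 23.8 CPM (log2 0.49), and Cxcl2, which draws neutrophils, at 27.0 and 36.9 CPM (log2 0.45). With cells thinned to 2000 UMIs the log2 ratio of Cxcl2 was 0.14, within the limit. Pf4 was at 9.71 and 14.2 CPM, but it is also an interstitial macrophage marker, and without cells holding a C1q UMI the log2 ratio was −0.22. Of 8 measured growth factors, 3 were higher: Osm (oncostatin M, a cytokine of the IL-6 family) at 16.0 and 26.0 CPM (log2 0.70, 0.50 to 0.90), Gdf15 at 23.4 and 33.4 CPM (0.51), and Pdgfb at 9.44 and 11.9 CPM (0.33). Pdgfb was within the limit with thinned cells (0.076). Tgfb1 was at 276 and 281 CPM. In wildtype, 3 of the 7 chemokines were higher and 1 lower, with a median of log2 0.29. Of the 8 growth factors, 3 were higher there and none lower, with a median of log2 0.26. Over all genes, 25.7% were higher and 8.1% lower in wildtype. Osm was at 18.5 and 17.2 CPM there and Cxcl2 at 29.2 and 25.4 CPM. Cells with 3 or more UMIs of 8 chemokine and cytokine genes were 1.48% early (1.12 to 1.91) and 2.00% late (1.64 to 2.41) after thinning, intervals that overlap. Unthinned they were 3.78 and 6.05%. Among T cells they were 2 of 68 early (2.94%, 0.358 to 10.2) and 4 of 38 late (10.5%, 2.94 to 24.8). With so few T cells, the shares of alveolar macrophages cannot be placed above or below theirs.

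Of 26 measured immediate early genes 6 were higher, against 2.12% of all genes. Another 20 were within the limit and none was lower, with a list median of log2 0.18. Egr1, a zinc-finger transcription factor, was at 50.6 CPM early and 78.6 CPM late (log2 0.64, 0.52 to 0.75). Nr4a1, a nuclear receptor, was at 11.1 and 16.5 CPM (log2 0.56, 0.32 to 0.81). Fosb, Junb, Klf2 and Rhob had log2 ratios between 0.34 and 0.35, near the limit. With every cell weighing the same, Fosb (0.29), Junb (0.28) and Rhob (0.31) were within it, and Klf2 was (0.32) with a pseudocount of 5 CPM. Fos was at 211 and 223 CPM and Jun at 91.8 and 114 CPM, within the limit. After thinning, cells with 3 or more UMIs of 7 such genes were 18.5% early (17.3 to 19.8) and 23.8% late (22.7 to 24.96), and 19.7 and 23.7% in wildtype. Unthinned they were 38.6 and 48.6% in HER2. Among T cells they were 23 of 68 early (33.8%, 22.8 to 46.3) and 15 of 38 late (39.5%, 24.0 to 56.6). These T cells are too few to place the shares of alveolar macrophages above or below theirs. In C1q-rich cells of the same HER2 libraries the list median was −0.11, and in free RNA 0.64.

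A few heat shock chaperones were lower. Hspa1b, an inducible Hsp70, was at 136 CPM early and 72.0 CPM late (1.89-fold lower, log2 −0.92, −1.003 to −0.83). Its neighbour Hspa1a, whose upstream region is nearly identical above, was at 68.8 and 41.1 CPM (log2 −0.74, −0.86 to −0.63). Dnaja1, an Hsp40 partner of Hsp70, was at 366 and 290 CPM (log2 −0.34, −0.39 to −0.29), and Ahsa1, an activator of Hsp90, at 45.0 and 28.6 CPM (log2 −0.65). Ahsa1 has a near-identical copy elsewhere in the genome. These 4 were lower and none higher of 34 measured, against 1.65 and 2.12% of all genes, with a median of log2 −0.08. Dnaja1 was within the limit (−0.32) with CPM taken without Gm42418, mitochondrial and ribosomal protein genes. The constitutive members were close to even: Hspa8 was at 2319 and 2095 CPM, and Hsp90ab1 at 1544 and 1496 CPM. In wildtype 13 of the 34 were lower and 2 higher, against 8.1 and 25.7% of all genes. Hspa1b was at 134 and 14.7 CPM there (log2 −3.19) and Hspa1a at 62.3 and 8.16 CPM (log2 −2.93). The C1q-rich cells of the HER2 libraries showed it too (Hspa1b log2 −0.86, Hspa1a −0.77).

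The share of cells with at least 3 UMIs of Hspa1a, Hspa1b, Dnajb1 and Hsph1 gave the same order. It was 5.94% early (5.22 to 6.73) and 2.50% late (2.10 to 2.95) in HER2 after thinning, and 5.50 and 0.172% in wildtype. Unthinned, the HER2 shares were 17.8 and 11.9%. Among T cells they were 19 of 68 early (27.9%, 17.7 to 40.1) and 6 of 38 late (15.8%, 6.02 to 31.3). These T cells are too few to place the shares of alveolar macrophages above or below theirs.

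**Figure D4:**
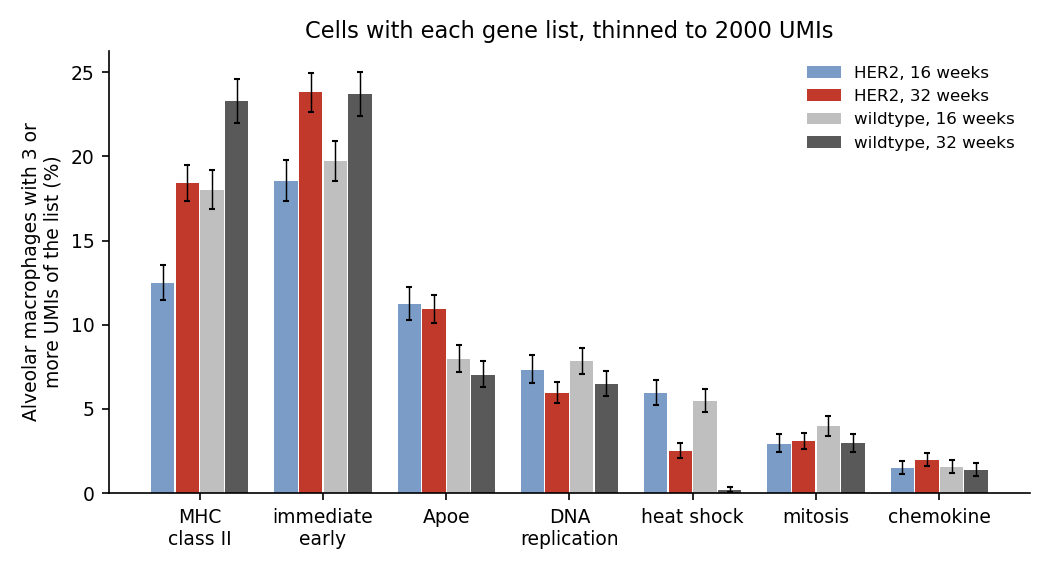
Share of alveolar macrophages with at least 3 UMIs of each gene list after thinning to 2000 UMIs, for the 4 libraries, with exact 95% intervals that cover counting error only. The heat shock share was 5.94 and 2.50% in HER2 and 5.50 and 0.172% in wildtype at 16 and 32 weeks.

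Ubb, which encodes a chain of ubiquitin units, was at 682 CPM early and 397 CPM late (log2 −0.78, −0.82 to −0.75), the only one past the limit of 4 ubiquitin genes. Bcl2a1a, a survival factor of the Bcl2 family, was at 151 and 86.5 CPM (log2 −0.81, −0.89 to −0.73). Its relative Bcl2a1b was at 224 and 188 CPM, and none of the other 11 measured survival genes was past the limit. Over all genes, 1.65% were lower and 2.12% higher, so counts from the short ubiquitin and survival lists say little. Hmgn2, which binds nucleosomes, was at 99.0 and 62.2 CPM (log2 −0.67), and Tmsb10, which binds actin monomers, at 1301 and 992 CPM (log2 −0.39). Ubb, Bcl2a1a, Hmgn2 and Tmsb10 all have near-identical copies in the genome. Such copies were found for 25.9% of the genes lower late, 6.76% of those higher late and 4.53% of all tested genes. Among 6720 genes with no such copy, 139 (2.07%) were higher and 86 (1.28%) lower. Ftl1-ps1, a ferritin light chain copy on the higher side (37.1 and 75.6 CPM), has 15.

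Of the named lower genes with no such copy, Malat1, a nuclear long RNA, was at 9730 CPM early and 7312 CPM late (log2 −0.41, −0.42 to −0.40) and at 9587 and 10168 CPM in wildtype. Ash1l (a histone methyltransferase, 81.0 and 62.8 CPM) and Mycbp2 (a ubiquitin ligase, 318 and 251 CPM) were likewise near even in wildtype, with log2 ratios of 0.04 and 0.05. In HER2, Mycbp2 was within the limit with thinned cells (log2 −0.30), and Ash1l with at most 5% mitochondrial UMIs (−0.28). Stmn1, which destabilises microtubules, was at 97.8 and 73.2 CPM (log2 −0.42; −0.13 without cells in cycle), and the calcium-binding S100a6 at 53.4 and 40.3 CPM (−0.40). Tsc22d3, a glucocorticoid-induced gene, was at 303 and 243 CPM (−0.32). None of the 11 measured glucocorticoid-responsive genes was lower past the limit. Over all genes, 1.65% were lower and 2.12% higher, so finding none lower among 11 is near that share. The metallothioneins Mt1 (471 and 606 CPM) and Mt2 (45.9 and 59.2 CPM) were higher. With thinned cells both were within the limit (log2 0.30 and 0.20).

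Lipid genes were split by pathway. Cholesterol synthesis had 4 of 16 measured genes higher and none lower, with a median of log2 0.17. In wildtype 7 were higher and none lower, with a median of log2 0.27. Over all genes, 2.12% were higher in HER2 and 25.7% in wildtype. Cyp51, a demethylase of lanosterol, was at 21.7 and 29.4 CPM (log2 0.44, 0.27 to 0.62). Insig1, a sterol sensor, was at 31.1 and 40.2 CPM (0.37) and Msmo1 at 22.5 and 28.5 CPM (0.34, and 0.28 with a pseudocount of 5 CPM, within the limit). All 16 genes of apolipoproteins and cholesterol efflux were within the limit. Abcg1, which exports cholesterol, was at 1588 and 1387 CPM, and Apoe at 308 and 349 CPM. Of 27 genes of fatty acid uptake, storage and oxidation, Fabp4 alone was past the limit. In wildtype 13 of them were higher, against 25.7% of all genes there.

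Among genes of lipid-associated macrophages, 3 of 20 were higher, against 2.12% of all genes. Mmp12, macrophage elastase, was at 37.6 CPM early and 61.8 CPM late (log2 0.72, 0.59 to 0.85), and at 51.4 and 148 CPM in wildtype. Without cells holding a C1q UMI it was at 37.8 and 55.5 CPM (log2 0.55). With at most 5% mitochondrial UMIs its log2 ratio was 0.31, within the limit. Cd63, a tetraspanin of late endosomes with a near-identical copy, was at 195 and 275 CPM (log2 0.49), and Gpnmb at 175 and 231 CPM (0.40). Trem2 was at 71.4 and 71.3 CPM and Spp1 at 2147 and 1917 CPM. Fn1, fibronectin, was at 47.4 and 26.7 CPM (log2 −0.83), and in wildtype at 116 and 12.5 CPM (log2 −3.21).

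Of 88 oxidative phosphorylation genes 1 was lower in HER2, against 32 in wildtype. Of 80 ribosomal protein genes 6 were lower and 1 higher, against 50 and 6 in wildtype. Of all genes, 1.65% were lower and 2.12% higher in HER2, and 8.1% were lower and 25.7% higher in wildtype. Of 45 lysosomal hydrolases and proton pump subunits, Cd63 alone was past the limit, against 19 higher in wildtype. Cells with 3 or more UMIs of 17 mitosis genes were 2.93% early and 3.08% late after thinning. Those with 18 DNA replication genes were 7.34% early (6.54 to 8.20) and 5.95% late (5.33 to 6.62). Thinned to 1000 UMIs the DNA replication shares were 2.67 and 2.54%, and unthinned 16.4 and 18.0%, so their order depended on the setting. Tuba1c, a tubulin with near-identical copies, was at 51.5 and 72.4 CPM (log2 0.49). Of 16 interferon-response genes, Ifi27l2a was higher (log2 0.36) and Ifitm3 lower (−0.42). Ifi27l2a was within the limit (0.25) with at most 5% mitochondrial UMIs, and Ifitm3 turned to 0.35 with free RNA subtracted.

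Beside wildtype, the HER2 ratios were mostly smaller and in the same direction. Among the 30 ranked genes, 26 had the same direction in wildtype, all but Ear1, Malat1, Mycbp2 and Ash1l, and 18 of the 26 had a larger ratio there. Of all 209 genes past the limit in HER2 with the same direction in wildtype, 134 had the smaller ratio in HER2. Over 2513 genes with a mean of at least 50 CPM, the 2 sets of ratios had a Pearson correlation of 0.50 across genes, which share the 4 libraries and are not independent replicates. The 2 comparisons share no library. The wildtype ratios had a median of log2 0.15 over all tested genes, so 70.6% of them were above 0. Whether HER2 and wildtype differ in their change with age was not tested, as it rests on 4 libraries.

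**Figure D5:**
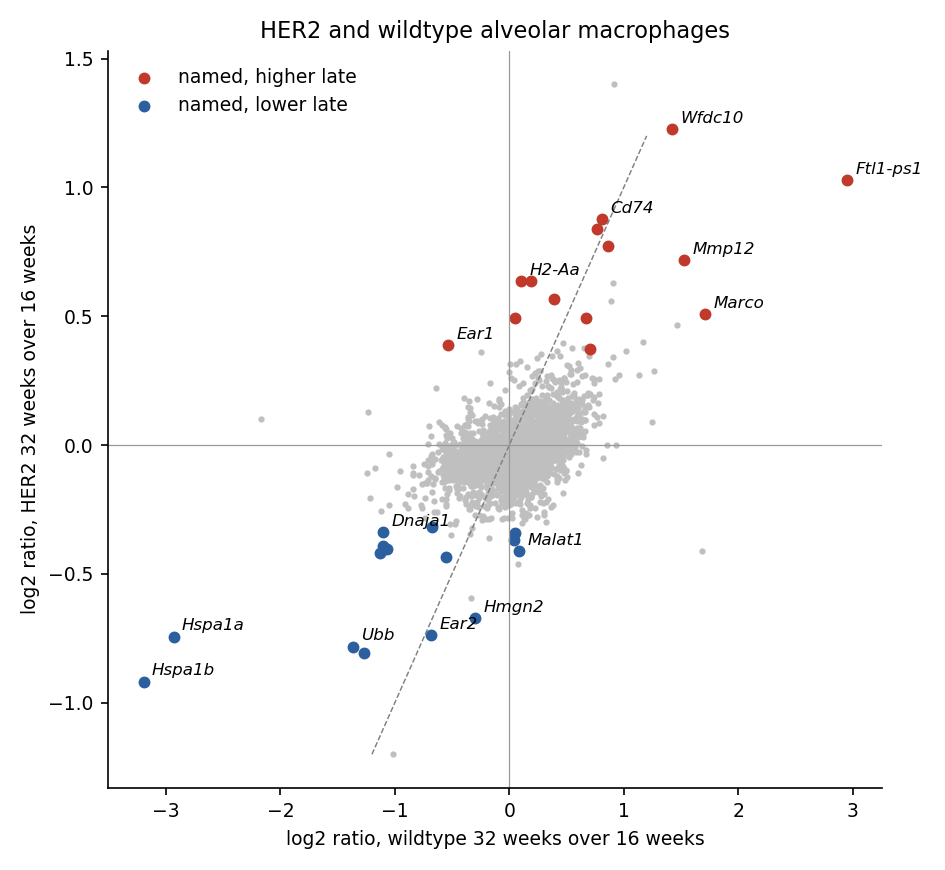
Log2 ratio of CPM, 32 over 16 weeks, in HER2 (vertical) against wildtype (horizontal) alveolar macrophages, for 2513 genes with a mean of at least 50 CPM in the HER2 libraries, with 29 named genes in colour. The dashed line marks equal ratios. Hspa1b lies at −3.19 in wildtype and −0.92 in HER2, Marco at 1.71 and 0.51, and Ear1 at −0.53 and 0.39.

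RNA of other cells differed between the 2 HER2 libraries. The 5 erythroid genes (haemoglobins and Alas2) summed to 0.604 CPM early and 34.7 CPM late in alveolar macrophages, and to 140 and 2631 CPM in free RNA. Scgb1a1, the secretoglobin of airway club cells, was at 23.9 and 4.06 CPM in these cells and at 862 and 49.4 CPM in free RNA. Markers of T cells (4.83 and 6.49 CPM), B cells (11.3 and 10.9 CPM) and dendritic cells (2.41 and 3.70 CPM) were low in sum. The 10 mammary epithelial and tumour markers summed to 0.494 and 0.544 CPM, with Krt14, Krt5, Wap and Lalba at 0 UMIs in both libraries. Without cells holding a haemoglobin UMI, 159 (2.26%) of 7047 genes were higher and 126 (1.79%) lower.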

How the data were processed

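Lung macrophages of 4 groups were profiled with a 10x 3′ assay, with 1 library each. The deposited matrices hold raw UMI counts, covering the whole barcode list of the assay. The submitters' processing notes name Cell Ranger 5.0.1 and the mm10 build, while the file headers name an earlier release. The authors also deposited average signal per gene over their own alveolar macrophages, in 1 table per age, with each column scaled to a sum of 10000; the way those cells were picked was not stated. Cells were chosen by the rule in the report, and no doublet caller was run. An alternative instead removed cells with 3 or more UMIs of other cell types' markers. Counts were summed over cells per library and divided by that library's sum to give CPM. Ratios late over early have exact conditional binomial 95% intervals, and shares have Clopper-Pearson ones. These reflect counting error alone, and no test was made. For list medians 1 CPM was added to each level. For shares of cells, each cell was thinned at random to 2000 UMIs, leaving out 490 early and 340 late HER2 cells below that.

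Genes were named by a rule: at least 50 CPM in either HER2 library, ranked by the interval bound nearest to 0, the 15 highest and 15 lowest. The ranking skipped genes of mitochondria, ribosomal proteins, immunoglobulins and haemoglobins, Xist, Y-linked genes, unnamed gene models and other cell types' markers. Up to 4 leading members of each list, 2 opposed ones and core members were named as well, and some of these genes are not reported here. Of the listed symbols, Ear12, Mx1 and Clec7a had no match in the files. The cell rule, lists and tests were chosen with earlier results of these data known. C1q-rich cells passed the same limits with C1qa, C1qb and C1qc at least 0.4% of UMIs and not below the alveolar genes; they numbered 434 early and 635 late. Near-identical copies were sought with BLAST 2.17.0, by 95% identity over 90 of a gene's last 300 bases in GENCODE M21. Python 3.11.15, numpy 2.4.6, scipy 1.17.1 and pandas 2.3.3 were used, and the ratios and intervals were tested on simulated data. Alternatives covered cell limits, scaling, minimum level, free RNA, fold limit and the authors' averages.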

Additional observations from a re-analysis of the deposited data

Results flagged for a closer look

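A set of 5 genes was past the limit used in the report in HER2 alveolar macrophages and past it the other way in wildtype ones. None of these differences was tested, since each rests on 1 library per group. The ribosomal protein gene Rps27, which has near-identical copies, had a log2 ratio of −0.41 in HER2 and 1.68 in wildtype. Cenpf, a centromere protein of dividing cells, had 0.36 and −0.72. Its HER2 ratio was 0.19, within the limit, without cells holding a C1q UMI and 1.68 without cells in cycle. S100a4, a calcium-binding protein, had 0.38 and −1.05, and its HER2 ratio was −0.040 without cells in cycle and −0.44 without cells holding a C1q UMI. Ear1 had 0.39 and −0.53. Pf4 had 0.55 and −0.41, and −0.22 in HER2 without cells holding a C1q UMI. Erythroid genes, which belong to no macrophage comparison, summed to 2631 CPM in the free RNA of the HER2 late library, against 694 CPM in that of the wildtype late library.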

How the results depend on the processing

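No paired analysis was possible because each group is 1 library and the labels carry no replicate numbers. The counts of genes past the limit (25% higher or 20% lower) moved by over 1.5 times under these alternatives: 252 higher and 206 lower with at most 5% mitochondrial UMIs, 226 and 324 with cells thinned to 2000 UMIs, 31 and 21 at a mean of 50 CPM or more, 744 and 558 over every gene with a UMI, 85 and 61 with a pseudocount of 5 CPM, and 28 and 25 at 1.5-fold. With CPM taken without Gm42418, mitochondrial and ribosomal protein genes, 262 of 7917 (3.31%) were higher. The number of genes tested also changed, from 7039 to 2513 at a mean of 50 CPM and to 17266 over every gene. The shares were 1.23 and 0.836% at a mean of 50 CPM, and 4.31 and 3.23% over every gene. In the main setting they were 2.12 and 1.65%. Heat shock members lower numbered 8 both with thinned cells and in the authors' averages, where 4 were reported. Cholesterol members higher numbered 0 at a mean of 50 CPM and at 1.5-fold, and 7 over every gene with a UMI, and MHC class II members 6 over every gene. Of 78 listed or named genes past the limit, each under 18 alternatives, 6 values changed sign. Without cells in cycle the log2 ratio of S100a4 was −0.040, and those of the 2 lower genes Rrm2 and Hist1h1b were 0.84 and 0.39. Without cells holding a C1q UMI, an alternative chosen after seeing the data, the ratio was −0.22 for Pf4 and −0.44 for S100a4. With free RNA subtracted it was 0.35 for Ifitm3, which was lower otherwise. The cause was not tested. None of the 30 ranked genes changed sign. The alternatives without cells holding a haemoglobin UMI and without genes that have a near-identical copy were likewise added after seeing the data. Genes near 10 CPM have wide intervals, and the estimated free RNA share, 2.70% early and 1.42% late, rests on 10 and 6 marker genes.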

Other observations

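The following genes fell outside the rule for named genes and were chosen after their values were seen. Col6a3, a chain of collagen VI, was at 19.97 CPM early and 46.5 CPM late in HER2 alveolar macrophages (log2 1.22, 1.05 to 1.39), and at 26.6 and 51.0 CPM in wildtype. Its level was 3.78 and 2.75 CPM in C1q-rich cells and 22.0 and 162 CPM in free RNA. Gpd1, which makes glycerol 3-phosphate, was at 11.7 and 22.2 CPM (log2 0.92, 0.69 to 1.15), and at 0 and 1.10 CPM in C1q-rich cells. Cxcr1, a chemokine receptor, was at 13.5 and 22.9 CPM (log2 0.76), and Igf2bp2, an RNA-binding protein, at 8.998 and 16.1 CPM (log2 0.84). All 4 were also higher late in wildtype, with log2 ratios of 0.94, 1.34, 1.33 and 1.68.

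Hilpda, a lipid droplet protein induced by hypoxia, was at 8.06 CPM early and 12.2 CPM late in HER2 (log2 0.60, 0.31 to 0.89) and at 8.53 and 8.44 CPM in wildtype. Eif3j1, a subunit of a translation initiation factor, was at 24.4 and 16.5 CPM in HER2 (log2 −0.56) and at 20.3 and 42.6 CPM in wildtype (log2 1.07). The end of Eif3j2 is nearly identical to a stretch of Eif3j1, so counts may be split between them. The difference between the genotypes was not tested for either gene.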
